A study of Mus musculus with 16 samples.

Results

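The notochord and tail bud mesoderm genes described here are 10 of the 26761 gene symbols counted in a bulk RNA sequencing study of the mouse gut endoderm: T, Noto, Chrd, Tbx6, Msgn1, Meox1, Mesp1, Mesp2, Tbx18 and Tcf15. The tables write them in capitals (T, NOTO, CHRD, TBX6, MSGN1, MEOX1, MESP1, MESP2, TBX18, TCF15). They were chosen by symbol, as genes of the axial mesoderm and of the mesoderm that forms somites, with earlier results of these data known. All 10 had enough counts in some of the libraries to be tested. The study made 16 libraries of polyadenylated RNA in 8 groups of 2. From E7.5 embryos (embryonic day 7.5) come the extraembryonic visceral endoderm, exVE, and its embryonic counterpart, emVE. From E8.75 embryos with 13 somites come whole gut tubes, either left intact (bulk) or dissociated into cells, and 4 sections of the tube. The section nearest the head is the anterior one, followed by anterior-midgut, then midgut-posterior, with the posterior section last.

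The labels name no genotype, treatment or strain for single libraries. The protocol shared by all of them describes single cells from gut tubes of embryos that carry 1 copy of an Afp-GFP transgene. In those torsos the head and the membranes outside the embryo had been taken off, a short digestion with pancreatin and trypsin loosened the tissues, and the tube was freed with needles. The same protocol has a milder digestion at day 7.5, after which the endoderm layer was lifted away, and speaks of definitive as well as visceral endoderm at that day. The sources used here do not give how many embryos went into a library, where the sections were cut, or whether the 2 libraries of a group came from separate embryos. The p-values therefore measure the spread between these libraries, which may be technical.

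The notochord is a rod of axial mesoderm under the neural tube. It grows backwards from the node and the tail bud, secretes signals that pattern the gut roof and the neural tube, and in the mouse lies against or within the endoderm before it separates from it. Beside it, paraxial mesoderm leaves the primitive streak and later the tail bud as presomitic mesoderm, which is cut into somites under a segmentation clock. T, also called Brachyury, is the T-box factor of the streak, tail bud and notochord; Noto is a homeobox factor of the node and posterior notochord; and Chrd encodes chordin, a secreted BMP antagonist made by the node and notochord. Tbx6 is the T-box factor, and Msgn1 the basic helix-loop-helix factor, that set presomitic identity. Mesp1 marks nascent mesoderm leaving the streak, and Mesp2 sets the segment border in the anterior presomitic mesoderm. Meox1 and Tcf15 (paraxis) act in formed somites, and Tbx18 marks the anterior compartment of somites and, outside the somites, the proepicardium and other mesoderm around organs.

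Promoter sequences were found in RefSeq for 8 of the 10 genes, all but Meox1 and Tcf15. The windows are the 250 bases before each start on GRCm38.p6, written 5′ to 3′ on the gene's strand. The 4 shown are those of the axial and presomitic factors whose transcripts stood high in the posterior section. They lie at chr17:8434173-8434422 (T, plus strand), chr6:85423636-85423885 (Noto, plus strand), chr7:126781233-126781482 (Tbx6, plus strand) and chr12:11208949-11209198 (Msgn1, minus strand). Capitals mark AGGTGT, a T-box half-site, CTTTGA, the core bound by TCF/LEF factors of Wnt signalling, and TATAAA, the TATA box, on either strand.
T: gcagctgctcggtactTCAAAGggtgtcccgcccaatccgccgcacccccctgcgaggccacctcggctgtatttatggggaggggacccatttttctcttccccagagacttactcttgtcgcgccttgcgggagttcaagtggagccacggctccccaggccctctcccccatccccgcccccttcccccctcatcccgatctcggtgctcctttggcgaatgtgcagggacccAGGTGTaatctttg
Noto: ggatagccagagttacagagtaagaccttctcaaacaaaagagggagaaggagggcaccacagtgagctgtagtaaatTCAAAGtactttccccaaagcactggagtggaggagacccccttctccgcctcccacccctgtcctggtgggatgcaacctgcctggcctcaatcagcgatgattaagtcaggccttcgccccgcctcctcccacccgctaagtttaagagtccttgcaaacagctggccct
Tbx6: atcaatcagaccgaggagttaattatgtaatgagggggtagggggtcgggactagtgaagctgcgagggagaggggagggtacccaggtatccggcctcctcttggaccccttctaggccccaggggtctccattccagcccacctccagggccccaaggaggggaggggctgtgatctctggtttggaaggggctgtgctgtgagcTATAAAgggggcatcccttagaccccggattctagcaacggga
Msgn1: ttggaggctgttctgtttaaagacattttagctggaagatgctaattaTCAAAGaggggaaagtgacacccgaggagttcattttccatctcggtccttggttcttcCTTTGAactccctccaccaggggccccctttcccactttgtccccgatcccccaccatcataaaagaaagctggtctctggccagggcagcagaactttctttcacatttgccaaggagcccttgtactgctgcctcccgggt
The T window held AGGTGT 14 bases before the start and CTTTGA on the opposite strand 234 bases before it. Noto had CTTTGA on the opposite strand 172 bases before its start. In the Msgn1 window CTTTGA was present on both strands, 143 bases before the start on the gene's strand and 202 on the other. The Tbx6 window held neither of these but had TATAAA 43 bases before the start. Of 32851 RefSeq windows of this length, 11.8% held AGGTGT, 13.8% CTTTGA and 12.4% TATAAA, so single matches are common. The motifs were picked after the levels were known, they do not overlap one another in these windows, and a match says only that the letters are there.

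Total counts per library were 57061536 to 84509973, and levels are given as counts-per-million values (CPM) on TMM-scaled library sizes. CPM is not corrected for gene length, so a gene's level is compared between samples and not with another gene's. Most low counts were even numbers (68.8% to 85.4% of the counts of 1 to 20 in each library, and 32 of 33 such values of these genes), so a count may stand for fewer independent fragments than its size. The 2 dissociated libraries differed from each other more than any other pair, with a chi-square of 322 per degree of freedom against 29.0 to 96.8 in the other 7 groups. Endoderm epithelium markers were present in every library (12 genes, summed CPM of 1687 to 4741, none at 0 in both libraries of a group). The tissue also held other cells: summed levels of 8 endothelial markers were 227 to 753 CPM in the gut tube libraries and 11.5 to 65.1 at day 7.5. In bulk tissue, fewer cells that express a gene and less RNA per cell cannot be told apart.

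**Figure D1:**
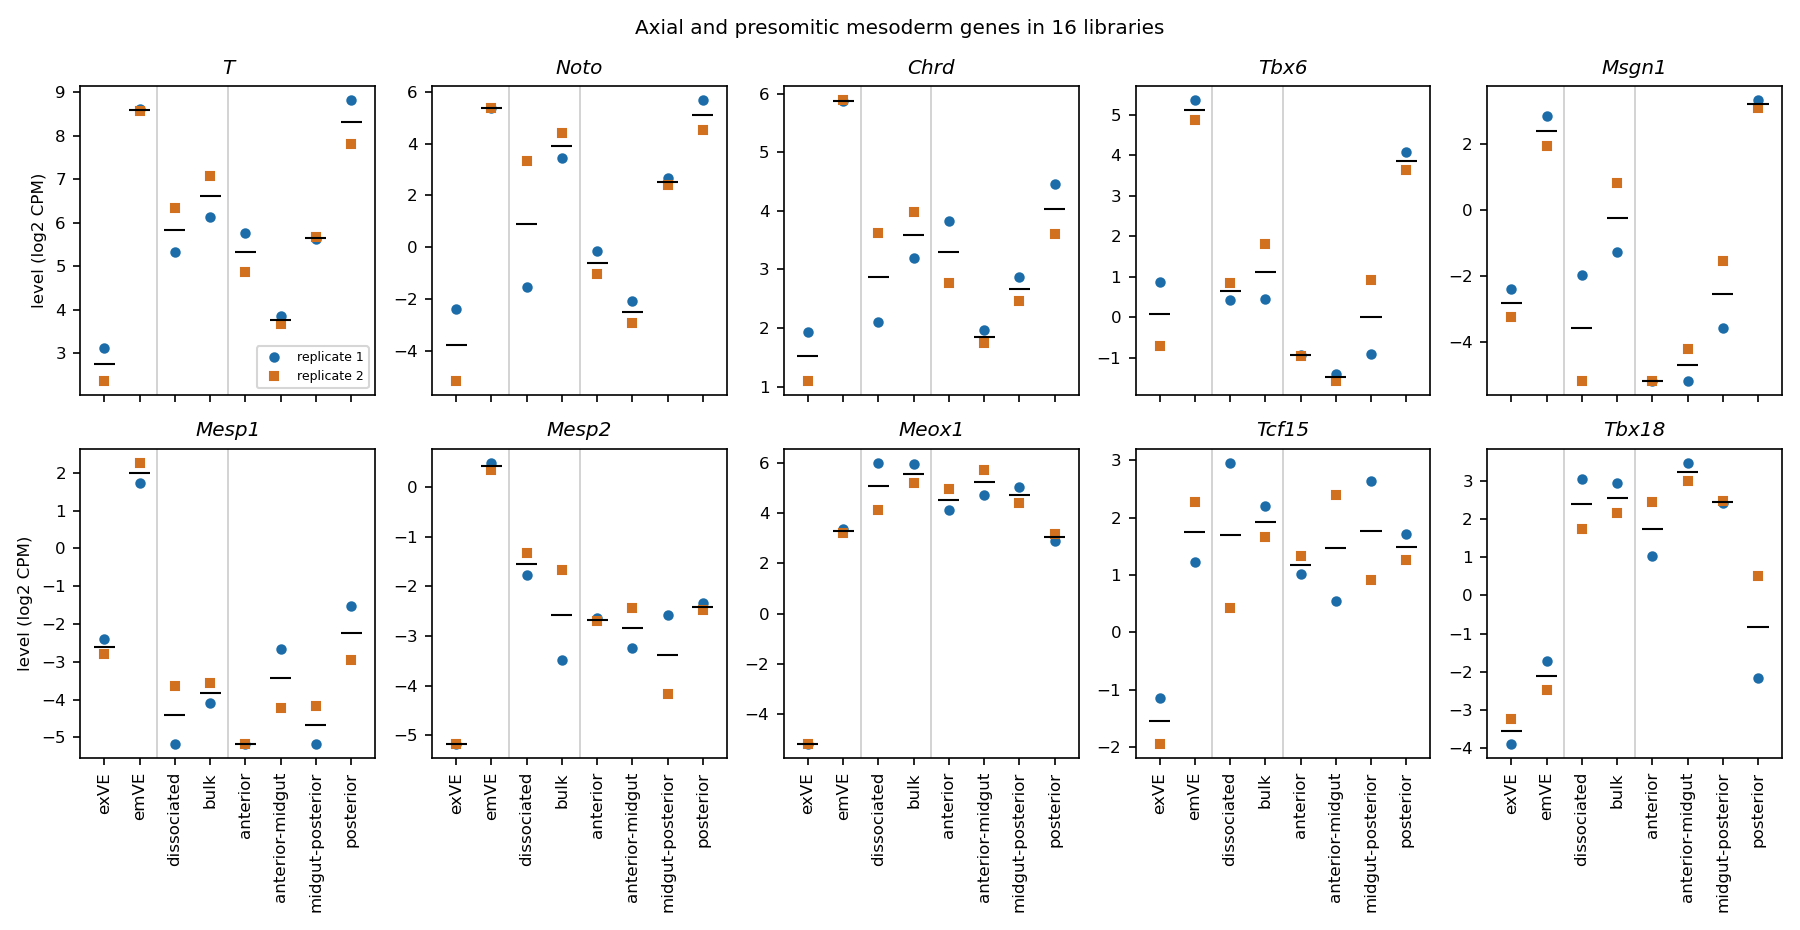
Level of each of the 10 genes in every library, as log2 CPM with a prior count of 2, which sets where a count of 0 is drawn. Circles are replicate 1, squares replicate 2, and bars their mean, with 1 panel per gene, its own axis, and 1 column per group. T, Noto and Chrd stand highest in emVE, Msgn1 stands highest in the posterior section, and Meox1 and Tbx18 stand lower in the posterior section than in the other gut sections.

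The 3 axial genes had 1 pattern in common: high in emVE, low in exVE, and within the gut tube highest in the posterior section. T was at 393 and 380 CPM in emVE (386 ± 9.10, SD, n = 2) and at 453 and 224 in the posterior section (339 ± 162). These 2 groups overlapped. Bulk tube had 70.6 and 136, dissociated cells 40.2 and 81.4, the midgut-posterior section 49.3 and 51.5, and the anterior section 54.9 and 29.3, with each of these neighbours in the order overlapping the next. The anterior-midgut section, at 14.6 and 12.8, lay below all of them, and exVE, at 8.63 and 5.15, lay lowest.

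Noto was at 42.0 and 41.7 CPM in emVE and at 51.8 and 22.9 in the posterior section, again with overlap. Bulk tube followed at 10.9 and 21.3 and the midgut-posterior section at 6.41 and 5.23. The anterior (0.873 and 0.454) and anterior-midgut (0.208 and 0.104) sections were far lower, and exVE had 8 counts in 1 library and 0 in the other. Dissociated cells split widely, with 0.313 CPM in replicate 1 and 10.1 in replicate 2. Chrd was highest in emVE, at 58.4 and 59.4 CPM, and did not overlap any other group there. The posterior section had 21.8 and 12.1, the anterior section 14.2 and 6.82, and the anterior-midgut section 3.86 and 3.31, which overlapped exVE at 3.81 and 2.12. Its anterior and posterior sections overlapped, unlike those of T and Noto.

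The presomitic genes were high in emVE and the posterior section and low elsewhere. Tbx6 was at 41.0 and 29.1 CPM in emVE and at 16.8 and 12.4 in the posterior section, and those 2 groups stood apart from each other and from the rest. In the other 6 groups it ranged from 0.312 to 3.47 CPM, and bulk tube, with 1.34 and 3.47, had the highest mean of them. Msgn1 was at 10.1 and 8.51 CPM in the posterior section, above emVE at 7.15 and 3.79, without overlap. Bulk tube had 0.385 and 1.72 and the midgut-posterior section 0.0558 and 0.318. The anterior section had no Msgn1 count in either library, which allows up to 3 counts over the group, and the anterior-midgut section had 2 counts in 1 of its 2 libraries.

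Mesp1 and Mesp2 were low in all gut tube samples. Mesp1 was at 3.33 and 4.78 CPM in emVE (194 and 314 counts). The next highest group was the posterior section, with 26 and 8 counts (0.317 and 0.10 CPM), and the anterior section had none. Mesp2 was at 1.37 and 1.25 CPM in emVE (80 and 82 counts), at most 0.369 in every gut tube library, and at 0 in both exVE libraries. Apart from emVE, the groups of both genes mostly overlapped their neighbours at counts of 0 to 28.

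Meox1 and Tbx18, of the somite class, were lowest in the posterior section among the gut tube groups. Meox1 was at 61.6 and 36.3 CPM in bulk tube, 63.8 and 17.5 in dissociated cells, 26.4 and 52.5 in the anterior-midgut piece, 33.1 and 21.1 in midgut-posterior and 17.4 and 30.8 in the anterior section. Neighbours among these 5 groups overlapped. The posterior section lay below all of them at 7.48 and 9.0, just under emVE at 10.4 and 9.32, and exVE had no count. Tbx18 peaked in the anterior-midgut section, at 11 and 7.87 CPM, which did not overlap bulk tube at 7.64 and 4.42 but did overlap dissociated cells at 8.14 and 3.29. It was at 5.29 and 5.47 in the midgut-posterior section, 2.01 and 5.42 in the anterior section and only 0.195 and 1.39 in the posterior section, which overlapped emVE at 0.274 and 0.152. Tcf15 showed no such order: its 7 groups other than exVE had means of 2.24 to 4.52 CPM and overlapped in sequence. Its libraries within a group differed as much as the groups did, for example 6.2 and 1.85 in the midgut-posterior section. In exVE it was at 0.423 and 0.233.

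The first comparison asks how the extraembryonic and embryonic visceral endoderm differ at day 7.5. All 3 axial genes, both presomitic genes, both Mesp genes and 2 of the 3 somite genes were lower in exVE. That is 9 of 10 lower and 0 higher, where 23.8% of the 17313 genes tested were lower and 43.9% passed in either direction (edgeR's quasi-likelihood test, Benjamini-Hochberg adjusted p under 0.05). The median log2 difference of the 10 genes was -5.16, with genes at 0 set to their bound, against 0 over all genes. With library totals in place of TMM scaling the 9 genes still passed, while the split over all genes moved from 3476 higher and 4129 lower to 1318 and 5907 and their median to -0.36.

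T fell by 5.81 on the log2 scale (SE 0.54, adjusted p = 9.23e-06 by edgeR), the smallest adjusted p among them. Noto fell by 9.01 (SE 1.54), a value that rests on 8 counts in exVE, and Chrd fell by 4.31 (SE 0.57). Tbx6 fell by 4.87 (SE 0.69), Msgn1 by 5.50 (SE 1.23) and Mesp1 by 4.85 (SE 1.00). With the empty exVE group set to a floor of 3 counts in all, Meox1 was at least 330-fold lower and Mesp2 at least 44.0-fold lower. A floor of 6 counts, since most counts are even, gives at least 165-fold and 22.0-fold. Tcf15 fell by 3.44 (SE 0.94, adjusted p = 0.0108 by edgeR). That call was lost without exVE replicate 2 (adjusted p = 0.0867) or without emVE replicate 2 (adjusted p = 0.0589). Tbx18, with 2 and 4 counts in exVE and 16 and 10 in emVE, did not pass (adjusted p = 0.23).

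Many partner genes were lower in exVE as well, as were 23.8% of all genes tested. Of 13 partners of the node and notochord, 11 were lower and 0 higher, among them Nog, a further BMP antagonist, with 0.726 and 0.272 CPM in exVE against 17.7 and 20.2. Foxj1, which drives motile cilia such as those of the node, was at 9.40 and 6.34 against 204 and 201. Of 12 genes of the clock and presomitic mesoderm 11 were lower, and of 18 tail bud genes 12 were lower and 1, Cyp26a1, which clears retinoic acid, was higher. Of 9 streak genes 5 were lower and 0 higher. The 4 that did not pass included Eomes, a T-box factor of both the streak and the visceral endoderm, at 40.9 and 50.4 against 37.7 and 36.8 CPM, and Pdgfra, at 191 and 214 against 77.3 and 80.0. Markers of other cells moved as well: 4 of 6 epiblast markers and 5 of 10 neural tube markers were lower in exVE, with summed neural levels of 3.48 to 7.28 CPM against 57.4 to 61.6, of which Irx3 alone made up 44.7 and 47.9 in emVE. None of the epiblast markers was at 0 in either group. The part of other cells in these differences was not tested.

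Along the gut tube, posterior against anterior section asks what separates the ends. T, Noto, Tbx6, Msgn1 and Mesp1 were higher in the posterior section and none of the 10 genes was lower. These 5 of 10 stand beside 4.03% of all tested genes that were higher and 7.91% that passed in either direction. The median log2 difference of the 10 genes was 1.85, against 0.00915 over all genes. T rose by 3.01 on the log2 scale (SE 0.47, adjusted p = 0.00222 by edgeR), an 8.05-fold difference, and Tbx6 by 4.88 (SE 0.69, adjusted p = 0.00136 by edgeR). Msgn1 was at least 526-fold higher against a floor of 3 counts (263-fold for a floor of 6; adjusted p = 0.00307 by edgeR).

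Noto rose by 5.80 (SE 1.21, adjusted p = 0.0121 by edgeR). It did not pass without anterior replicate 1 (adjusted p = 0.0839) or without anterior replicate 2 (adjusted p = 0.118). Mesp1 was at least 11.9-fold higher (5.96-fold for a floor of 6, adjusted p = 0.0334 by edgeR), on 34 counts. It was kept by the filter on low counts through emVE (194 and 314 counts), as no other library had more than 26. With only the compared sections in the fit Mesp1 had no value. Its call was lost without anterior replicate 1 (adjusted p = 0.171), anterior replicate 2 (0.153) or posterior replicate 1 (0.165), and with replicate number as a block (0.0531). Chrd differed by 0.69 (SE 0.50, adjusted p = 0.534 by edgeR). Meox1 differed by -1.55 (SE 0.55, adjusted p = 0.131 by edgeR) and Tbx18 by -2.22 (SE 0.75, adjusted p = 0.103 by edgeR), and neither overlapped between the ends. Of the 10 genes 8 did not overlap, where 54% of all genes did not. DESeq2 called both (adjusted p = 0.0329 and 0.0227), and Tbx18 also passed without posterior replicate 2 (log2 difference of -4.24, adjusted p = 0.0137 by edgeR).

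Taken by neighbouring sections, members passed at the last step alone. Between anterior and anterior-midgut none of the 10 genes passed, where 5.59% of all genes did. T came nearest, with a log2 difference of -1.62 (SE 0.45, adjusted p = 0.0587 by edgeR). Its adjusted p was 0.0355 with no filter on low counts, 0.0298 with only these 4 libraries in the fit, 0.00306 by DESeq2 and 0.0307 without the dissociated libraries. From anterior-midgut to midgut-posterior none passed either, where 0.497% of all genes did, although 6 of the 10 (T, Noto, Chrd, Tbx6, Msgn1 and Tbx18) did not overlap between these 2 groups, as was so for 41.1% of all genes. For Noto the log2 difference was 5.21 (SE 1.29, adjusted p = 0.133 by edgeR; 0.00378 without the dissociated libraries). Beside these 2 counts of 0 stand 2942 and 1241 genes with p under 0.05 before adjustment, and DESeq2 called 3 and 2 of the 10 genes.

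From midgut-posterior to posterior, T, Tbx6 and Msgn1 were higher and none was lower: 3 of 10, where 1.13% of all genes were higher and 2.26% passed. T rose by 2.75 (SE 0.46, adjusted p = 0.0107 by edgeR), Tbx6 by 3.63 (SE 0.65, adjusted p = 0.0146 by edgeR) and Msgn1 by 5.62 (SE 1.18, adjusted p = 0.0352 by edgeR). The median log2 difference of the 10 genes was 2.04, against -0.000585 over all genes. These calls rest on few libraries. With only the 4 compared libraries in the fit all 3 were lost (adjusted p = 0.0594 for T, 0.0876 for Tbx6 and 0.0594 for Msgn1). Without midgut-posterior replicate 1 they had adjusted p = 0.12, 0.119 and 0.247, and without posterior replicate 1 they had 0.0943, 0.0918 and 0.175. T and Msgn1 also failed without midgut-posterior replicate 2 (0.106 and 0.13), and Msgn1 with the replicate block (0.0614). Noto differed by 2.68 (SE 1.02, adjusted p = 0.225 by edgeR), Tbx18 by -2.76 (SE 0.77, adjusted p = 0.0879 by edgeR) and Meox1 by -1.72 (SE 0.56, adjusted p = 0.151 by edgeR), all 3 without overlap. Of the 10 genes 9 did not overlap, where 48.8% of all genes did not. Tbx18 passed without posterior replicate 2 (log2 difference of -4.77, adjusted p = 0.0123 by edgeR).

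A test of any difference among the 4 sections found 6 of the 10 genes, where 12.9% of all genes passed. T (adjusted p = 0.000264 by edgeR), Tbx6 (0.000376), Msgn1 (0.0011), Noto (0.00348) and Chrd (0.0467) were highest in the posterior section, and Tbx18 (0.0461) in the anterior-midgut section. Chrd and Tbx18 lay near the threshold. Chrd was lost in 6 of 8 fits that left out 1 section library (adjusted p of up to 0.193 without posterior replicate 1) and with the replicate block (0.0727). Tbx18 was lost in 6 such fits, with adjusted p of up to 0.132 without anterior-midgut replicate 1, and with the replicate block (0.0759). Mesp1 (0.0514) and Meox1 (0.0949) did not pass, and Mesp2 (0.952) and Tcf15 (0.954) were far from it. These section comparisons share libraries, so they are not independent of one another.

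**Figure D2:**
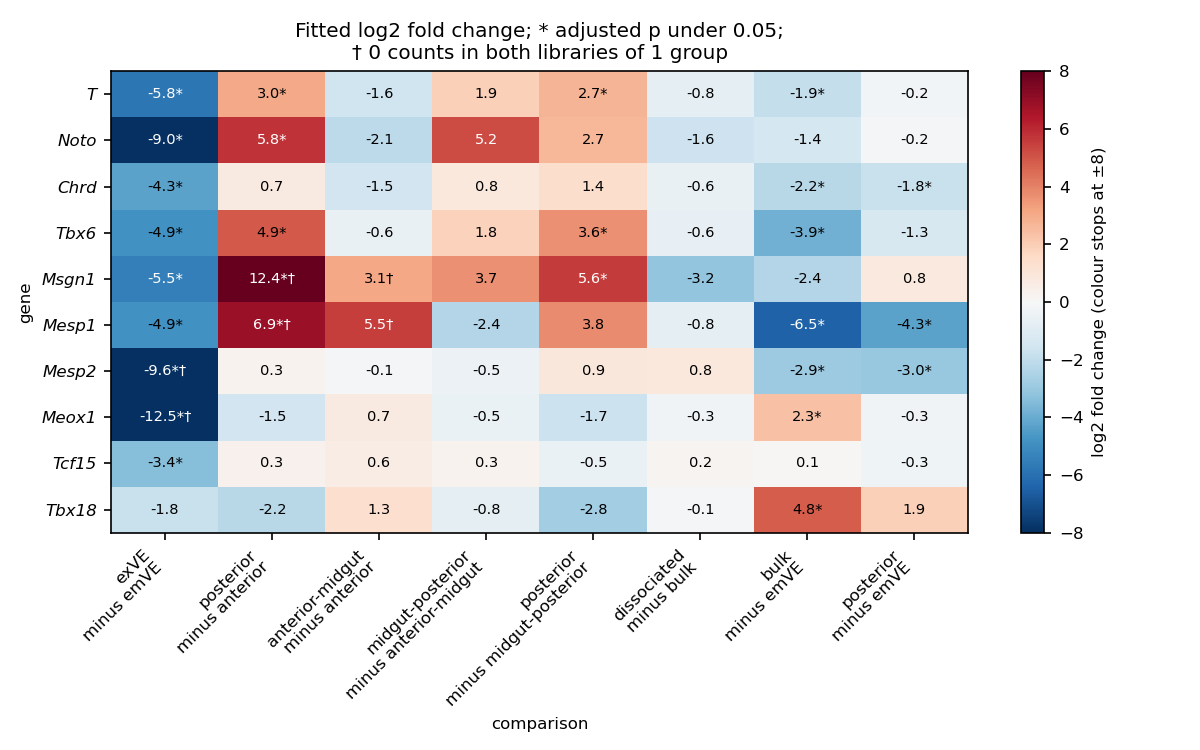
Fitted log2 fold change of each of the 10 genes (rows) in the 8 pairwise comparisons (columns, first group against second), with a star where the adjusted p was under 0.05 and a dagger where 1 of the groups had no count, so that the fitted number is no measure of size. The exVE against emVE column holds 9 stars, all lower, and the stars of posterior against anterior are all higher.

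The genes that act with the members were examined through lists of known roles. Of 18 tail bud genes, 14 were higher in the posterior than in the anterior section and 0 were lower, with a median log2 difference of 3.33. Among them Cdx2, a caudal homeobox factor of tail bud and hindgut endoderm, was at 322 and 209 CPM against 0.685 and 0.933. Cdx4, of the same family, was at 215 and 158 against 0.110 and 0.403. Wnt3a, the tail bud Wnt ligand, did not pass, at 37.3 and 16.3 CPM in the posterior section against 0 and 1.79 (adjusted p = 0.0674 by edgeR). From the midgut-posterior to the posterior section 14 of the 18 were higher again, including Fgf8, at 113 and 45.7 against 1.69 and 5.31 CPM.

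Of 12 clock and presomitic genes, 5 were higher in the posterior than in the anterior section, 1 was lower and 6 did not pass. Hes7, the oscillating repressor of the clock, was at 31.8 and 13.2 CPM against 0.309 and 0.504, and Dll3, a Notch ligand of the presomitic mesoderm, at 25.4 and 18.9 against 0.884 and 1.15. Pcdh8 was the lower one, at 0.806 and 0.879 against 3.23 and 3.05. Of 9 streak genes 2 were higher and 0 lower: Mixl1, at 13.1 and 5.22 against 0.0884 and 0.0252 CPM, and Lefty2, at 1.06 and 1.13 against 0.0442 and 0.176. Hes7, Dll3, Dll1, Nrarp, Nkd1 and Mixl1 were also higher in the posterior than in the midgut-posterior section.

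Node and notochord partners were mixed. Between posterior and anterior section 4 of 13 were higher (Nodal, Bicc1, Dand5 and Foxa2) and 1, the cartilage and notochord collagen Col2a1, was lower, at 37.8 and 39.1 CPM against 372 and 297. Foxa2, a forkhead factor of node, notochord and endoderm, was at 95.5 and 35.8 CPM against 29.8 and 17.2. Shh, secreted by the notochord and also made by gut endoderm, was at 204 and 92.8 against 91.1 and 52.9 and did not pass (adjusted p = 0.192 by edgeR). Of 22 genes of the BMP pathway, in which Chrd acts, 1 was higher (Bmp4, at 100.3 and 106 CPM against 41.0 and 44.5) and 1 was lower (Bmp6).

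Of 15 somite genes, 0 were higher and 5 lower in the posterior than in the anterior section and 10 did not pass, with a median log2 difference of -1.87. Among them were Eya1, Pax1 and Ripply3, which are also genes of the pharyngeal pouches or arches, and Foxc1. Pax1 was at 0.0366 and 0 CPM against 107 and 47.1. Of 11 other T-box genes that could be tested, 1 was higher, Tbx4 of the hindlimb and allantois region (3.05 and 29.0 CPM against 0.0663 and 0.277), and 4 were lower, among them Tbx1 of the pharynx (1.09 and 0.640 against 97.3 and 73.9).

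Markers of other cell types differed between the same sections. Beside the low posterior levels of Meox1 and Tbx18, 4 of 10 heart and splanchnic mesoderm markers were lower there than in the anterior section. Of these 10 markers 0 were higher. Summed levels were 105 to 449 CPM against 634 to 894, with no marker at 0 in either group. Actc1, Myl7 and Tnnt2 made up much of the anterior sum, with means of 224, 106 and 95.4 CPM. Hand1 and Foxf1 went the other way, with posterior means of 67.8 and 94.9 CPM against 11.6 and 38.2. Both overlapped between the ends and did not pass, and the other listed markers had lower posterior means. This sum therefore does not show how much splanchnic mesoderm either section held. Proepicardial markers, the other known site of Tbx18, summed to 14.1 to 31.2 CPM in the posterior and 100.6 to 112 in the anterior-midgut section. That pair of sections was not tested, and Hcn4 alone was at 53.4 and 43.0 CPM in the anterior-midgut section. Between posterior and anterior section only Sema3d of these markers passed, as lower. Beside the high posterior levels of T and its partners, 3 of 10 neural tube markers were lower than in the anterior section (summed levels of 61.6 to 79.8 against 269 to 315 CPM). Irx3 and Sox2 made up most of the anterior sum, Irx3 at 161 and 148 CPM and Sox2 at 120 and 75.9. The sum therefore does not show how much neural tube the anterior section held. Of 12 endoderm epithelium markers 1 was higher and 0 lower. Of 6 genes listed as epiblast markers 1 was higher, Pou5f1, at 43.1 and 9.36 against 0.287 and 0.151 CPM. The others did not pass and went both ways. Nanog was at 5.95 and 1.73 against 0.884 and 0.668, and Fgf5 at 0.904 and 0.603 against 2.87 and 1.73. Pou5f1 alone does not show which cells carried it. Of 6 intermediate and lateral mesoderm markers 1 was higher, Pax2, at 36.6 and 15.5 against 8.18 and 7.0, and 2 were lower. Pou5f1 and Pax2, like T, were higher in posterior replicate 1 than in replicate 2. The 2 posterior libraries also differed in other tissues: visceral endoderm markers summed to 157 CPM in replicate 1 and 1289 in replicate 2, and heart markers to 105 and 449. The part of these cells in the results was not tested.

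**Figure D3:**
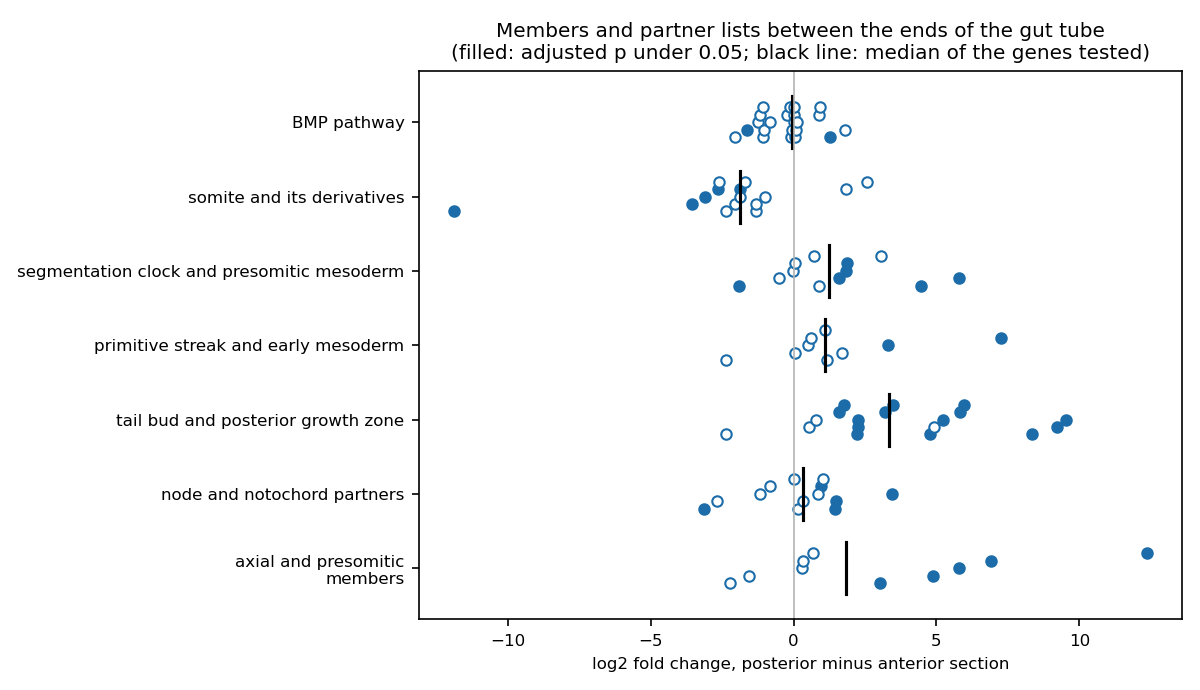
Fitted log2 fold change between posterior and anterior section of each tested gene in 6 lists of known roles and, in the lowest row, of the 10 members; filled points passed the test and black bars are medians. Most tail bud genes lie to the right of 0, most somite genes to the left, and node and notochord partners on both sides; the points of Msgn1 and Mesp1, which had no anterior count, are no measure of size.

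Bulk gut tube against emVE asks what differs between the E8.75 tube and the E7.5 embryonic endoderm. T, Chrd, Tbx6, Mesp1 and Mesp2 were lower in the tube, and Meox1 and Tbx18 were higher. These 7 of 10 genes stand beside 38.6% of all genes that passed, 21.7% higher and 16.9% lower. The axial, presomitic and Mesp gene calls were all lower, and the 2 higher genes both belong to the somite class. Tbx6 fell by 3.86 (SE 0.65, adjusted p = 0.000784 by edgeR) and Mesp1 by 6.46 (SE 1.11, adjusted p = 0.00114 by edgeR). Tbx18 rose by 4.82 (SE 0.88, adjusted p = 0.00133 by edgeR), from 0.274 and 0.152 CPM to 7.64 and 4.42.

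The other 4 calls depended on single libraries. T fell by 1.90 (SE 0.45, adjusted p = 0.0057 by edgeR) and Chrd by 2.24 (SE 0.52, adjusted p = 0.00532 by edgeR). Without bulk replicate 1 their adjusted p was 0.0627 and 0.0597. Meox1 rose by 2.31 (SE 0.57, adjusted p = 0.00851 by edgeR) and Mesp2 fell by 2.89 (SE 0.81, adjusted p = 0.0166 by edgeR). Without bulk replicate 1 these had 0.0582 and 0.117, without emVE replicate 1 they had 0.0514 and 0.0612, and without emVE replicate 2 they had 0.0628 and 0.052. Noto (-1.38, SE 0.98, adjusted p = 0.289 by edgeR) and Msgn1 (-2.37, SE 0.99, adjusted p = 0.0819 by edgeR) did not pass. Tcf15 differed by 0.11 (SE 0.80). The groups also differ in their other cells: 8 of 8 endothelial, 8 of 10 heart and 5 of 7 proepicardial markers were higher in bulk tube. Genes listed as epiblast markers were lower there. The log2 difference was -2.72 for Pou5f1, -3.28 for Fgf5, -2.61 for Nanog, -2.20 for Utf1 and -2.26 for Dnmt3b, while Slc7a3 did not pass. The part of these cells in the levels of the 10 genes, higher or lower, was not tested.

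Posterior section against emVE sets the 2 groups with the most T side by side. They share the emVE libraries with the comparisons above. T differed by -0.19 (SE 0.43, adjusted p = 0.759 by edgeR) and Noto by -0.16 (SE 0.96, adjusted p = 0.911 by edgeR). Msgn1 differed by 0.76 (SE 0.93) and Tbx6 by -1.27 (SE 0.58, adjusted p = 0.102 by edgeR). The members that passed were lower in the posterior section, 3 of 10, where 18.8% of all genes were lower and 40.7% passed. Chrd fell by 1.79 (SE 0.51, adjusted p = 0.0148 by edgeR), Mesp1 by 4.26 (SE 0.94, adjusted p = 0.00451 by edgeR) and Mesp2 by 3.01 (SE 0.81, adjusted p = 0.0128 by edgeR). Chrd had an adjusted p of 0.113 without posterior replicate 2, 0.0506 without emVE replicate 1 and 0.054 without emVE replicate 2. Mesp2 had 0.0683 without posterior replicate 1 and 0.0805 without posterior replicate 2. Markers of other cells differed too, with 8 of 8 endothelial markers and 7 of 8 primitive blood markers higher in the posterior section and 9 of 11 visceral endoderm and 4 of 6 epiblast markers lower. The share of counts from mitochondrial genes was 2.30% to 2.52% in the posterior section and 4.77% to 5.48% in emVE. The part of these in the results was not tested.

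Partner genes also differed between these 2 T-rich tissues, in a comparison where 40.7% of all genes passed and 18.8% were lower. Of 13 node and notochord partners, 8 were lower in the posterior section and 3 higher. Foxj1 was at 4.14 and 2.22 CPM against 204 and 201 in emVE, while Shh was higher, at 204 and 92.8 against 18.7 and 24.1. Of 18 tail bud genes 10 were higher and 0 lower. Of 9 streak genes 3 were lower and 0 higher, a smaller share passing than over all genes. Eomes was at 0.562 and 0.276 CPM against 37.7 and 36.8.

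Dissociated cells against bulk tube asks how dissociated and intact tubes differ in the RNA that was measured. None of the 10 genes passed, and 0 of all 17313 genes did (0% called by edgeR). Before adjustment 2809 genes had p under 0.05, and DESeq2 passed 304, with none of the 10 among them. Without dissociated replicate 1 the count over all genes was 4754 by edgeR, and leaving out any of the other 3 libraries gave 0 to 5. The wide gap between the dissociated libraries shows in the members. Noto was at 0.313 and 10.1 CPM against 10.9 and 21.3 in bulk tube, a log2 difference of -1.64 (SE 0.99, adjusted p = 0.414 by edgeR). Msgn1 had 19 and 0 counts against 25 and 120 (log2 difference of -3.16, SE 1.13, adjusted p = 0.259 by edgeR). Without dissociated replicate 1 Msgn1 passed (adjusted p = 0.0124). These 2 were the only members without overlap, where 37.5% of all genes did not overlap.

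Within groups, T and Meox1 often differed between the 2 libraries in opposite directions. The library with more T had more Tbx6 in 8 of 8 groups and more Noto in 7 of 8. It had less Meox1 in 6 of the 7 groups with any Meox1 count. Msgn1 went opposite to Meox1 in 3 groups and the same way in 3. In dissociated cells T was at 40.2 and 81.4 CPM while Meox1 was at 63.8 and 17.5. In bulk tube T was at 70.6 and 136 while Meox1 was at 61.6 and 36.3. In the anterior section T was at 54.9 and 29.3 while Meox1 was at 17.4 and 30.8. The exception was emVE, where replicate 1 had more of both. Some of the differences counted were close to none. On the log2 scale, replicate 1 minus replicate 2, T differed by 0.048 in emVE and -0.062 in midgut-posterior. Noto differed by 0.010 in emVE and Tbx6 by 0.015 in the anterior section. How often other genes go the same way as T was not counted. Genes are not independent of one another, and these counts are a description.

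**Figure D4:**
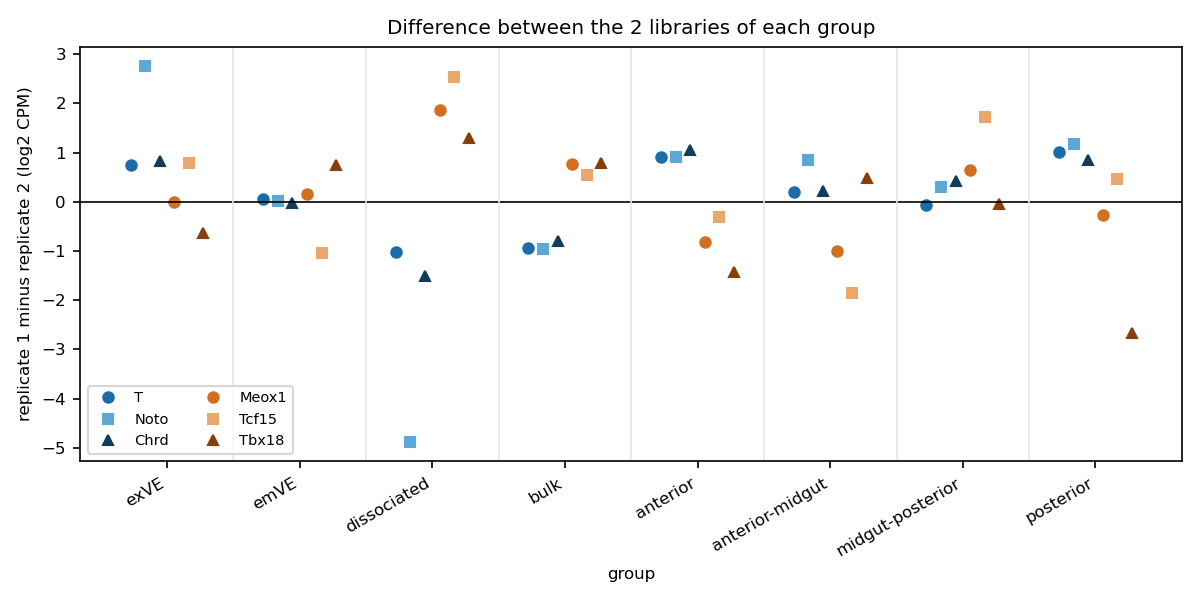
Difference between replicate 1 and replicate 2 of each group, on a log2 CPM scale, for T, Noto, Chrd, Meox1, Tcf15 and Tbx18; positive values are higher in replicate 1. In dissociated cells and bulk tube T and Noto lie below 0 while Meox1 and Tbx18 lie above it. In the posterior section the signs are the other way round. Over all 8 groups T and Tbx18 differed in opposite directions in 5 and in the same direction in 3. Meox1 had no count in exVE and is drawn at 0 there.

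Over all 16 libraries, log2 CPM of T went closest with Noto among the members (Pearson r = 0.948), and Tbx6 with Msgn1 (r = 0.916). T and Chrd had r = 0.916, and Meox1 and Tbx18 had r = 0.816. Over the 8 section libraries alone T had r = -0.925 with Meox1 and -0.929 with Tbx18, against 0.420 and -0.121 over all 16. The wider set includes exVE, in which most members were near 0. These values are descriptions over libraries that share groups of 2 and scaling, and no test was made. Among 15673 genes, those most like T were Avpr1b (r = 0.971), Car11 (r = 0.955) and Dll3 (r = 0.951). Dll3 averaged 19.5 CPM in emVE, 22.2 in the posterior section and 0.701 in the anterior-midgut section. Noto was most like Bpifb1 (r = 0.946), Tbx6 most like Nodal (r = 0.931), and Chrd most like Adrb3 (r = 0.954). Meox1 was most like Scn2b (r = 0.982), and Tbx18 most like Emilin2 (r = 0.980) and Nr2f1 (r = 0.980). Nr2f1 averaged 124 CPM in the anterior-midgut section, 4.56 in the posterior section and 0.0562 in emVE.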

How the data were processed

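Bulk RNA sequencing gave 16 libraries, grouped by their titles into 8 groups of 2. The authors deposited 1 table per library with a whole-number read count per gene symbol (26795 entries, of which 32 symbols occur more than once and were summed). Reads were aligned with STAR, per the submitters' processing notes; the sources used here do not give its version, the genome build, the annotation, the counter or its strand setting. Overlapping, antisense and paralogous genes can therefore share reads. Total counts were 57061536 to 84509973 per library.

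Here counts were filtered with filterByExpr (minimum count 10, minimum total 15; 17313 genes), scaled by TMM and fitted with edgeR 4.0.16's quasi-likelihood model (R 4.3.3) over all 16 libraries, with group as the only term. Adjusted p-values are Benjamini-Hochberg over all genes tested, with a threshold of 0.05; the SE is the log2 fold change divided by the square root of F. Likeness used Pearson's r of log2 CPM with a prior count of 2, and names the genes with the highest r. A group with no count was set to 3 counts in all to bound a fold change.

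The members, lists, marker genes and tests were chosen with earlier results of these data known. All 10 members are named, and from each list up to 4 passing genes with the smallest adjusted p could be named. Further list genes (Foxa2, Shh, Nog, Fgf8, Wnt3a, Cyp26a1, Lefty2 and others) were picked by role after their values were seen. For each member the 3 most alike genes were found, and 1 to 3 are named. Every group has replicates 1 and 2, what libraries of 1 number share is not stated, and same-numbered libraries deviated together only weakly (r of -0.108 to 0.216 over the pairwise comparisons). Counts were simulated for 17313 genes, of which 200 were changed. Between exVE and emVE 25.4% of 2-fold and 60.6% of 4-fold changes were recovered, and between posterior and anterior section 25.4% and 56.1%. A failed test is therefore weak evidence at 2 libraries a group. In the real data 43.9% and 7.91% of genes passed in these comparisons, a larger share than was changed, so the recovery rates need not hold there. Alternatives were RLE scaling, library totals, no filter, a replicate block, fits of the compared groups alone, DESeq2 1.42.0 and leaving out each library. Fits without the dissociated libraries, with halved counts and with crossed numbers were added after seeing the data.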

Additional observations from a re-analysis of the deposited data

How the results depend on the processing

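Groups of 2 libraries limit the precision of every call here, and low counts limit Mesp1 and Mesp2 outside emVE (0 to 28 counts), Msgn1 outside emVE and the posterior section (0 to 120), Noto in exVE (8 and 0) and Tbx18 in exVE and emVE (2 to 16). Of 33 calls for the 10 genes, 19 passed in every alternative, 14 were lost in at least one, and 0 reversed. Of 57 results that did not pass, 17 passed in at least one alternative, and 17 changed sign in one, always without passing. With the compared groups alone, low counts left Mesp1 without a value in each section comparison and for dissociated against bulk, Msgn1 in anterior-midgut against anterior and midgut-posterior against anterior-midgut, and Tbx18 in exVE against emVE; DESeq2 gave Mesp1 and Mesp2 no adjusted p for dissociated against bulk. The highest group was the same for 10 of 10 genes with RLE factors and with library totals.

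Among the 10 genes, the number that passed between posterior and anterior section was 5, and 3 to 6 when 1 library was left out. Between posterior and midgut-posterior it was 3, and 0 to 4 with 1 library left out, 0 with the compared groups alone, 5 by DESeq2 and 5 without the dissociated libraries. Between anterior-midgut and anterior it was 0, but 1 with no filter, 1 with the compared groups alone, 3 by DESeq2 and 2 without the dissociated libraries. Between midgut-posterior and anterior-midgut it was 0, but 2 with the compared groups alone, 2 by DESeq2 and 1 without the dissociated libraries. Leaving out 1 library gave 0 in both of these comparisons, 0 to 1 for dissociated against bulk, 3 to 7 for bulk against emVE, 1 to 3 for posterior against emVE, 8 to 9 for exVE against emVE and 4 to 7 for any section difference. Where this left 1 library in a group, that library was assumed to vary like the others. Halved counts changed 1 count, to 8 from 7 for bulk against emVE. The median r over member pairs was 0.520 over 16 libraries and 0.103 in the section libraries.

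With the replicate block, posterior against anterior had 4 of the 10 genes (Mesp1 lost), posterior against midgut-posterior 2 (Msgn1 lost) and any section difference 4 (Chrd and Tbx18 lost); it changed no other call of these genes. The pairing is by number alone. Crossing the numbers of the dissociated libraries (r of -0.108 with bulk) gave 5 genes of all tested in that comparison, against 7 with the numbers as labelled and 0 without a block.

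Over all genes, DESeq2 called 2280 for posterior against anterior (edgeR 1370), 1729 for anterior-midgut against anterior (968), 443 for midgut-posterior against anterior-midgut (86), 1299 for posterior against midgut-posterior (392), 304 for dissociated against bulk (0) and 3739 for any section difference (2236). The 86 became 152 with no filter, 53 with the block, 251 with the compared groups alone and 213 without the dissociated libraries. The 392 became 17 with the compared groups alone and 856 without the dissociated libraries, the 968 became 1471 without them, and the 0 became 7 with no filter. Leaving out 1 library gave 615 to 1037, 201 to 694, 6 to 17, 65 to 797, 0 to 4754 and 1244 to 2246 for these 6 comparisons in the order above, and 4242 to 4998 for bulk against emVE (6688).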
